A study of Mus musculus with 31 samples.

Results

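The genes described here are 36 nuclear genes of respiratory complexes II, III and IV in mouse liver and skeletal muscle. They comprise the 4 subunits of complex II, 9 subunits of complex III with the assembly factor *Bcs1l*, cytochrome c (*Cycs*), 14 subunits of complex IV and 7 complex IV assembly factors. A gene is a member by its place in these complexes and not by a measured value, and symbols were matched to Ensembl gene IDs through GENCODE vM21. All 36 were found in both deposited count tables, which hold 35275 gene IDs for the insulin experiment and 54532 for the ERRα3SA experiment. *Esrra* encodes the nuclear receptor ERRα.

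RNA of 31 samples in 8 groups was sequenced. The 15 livers of the insulin experiment came from male C57BL/6N littermates, either WT or lacking ERRα throughout the body (ERRα-/-), aged 2 to 3 months. After a 12 h fast each mouse received an intraperitoneal injection, either saline or 1 unit/kg of insulin, and its liver was taken 4 h later. There were 4 WT livers given saline, 4 WT livers given insulin, 4 ERRα-/- livers given saline and 3 ERRα-/- livers given insulin. The 16 samples of the other experiment came from mice homozygous for ERRα3SA, a knock-in allele in which 3 serines of ERRα are replaced by alanine, and from their WT littermates, of the same strain, sex and age on a normal diet, with 4 livers and 4 muscles of each genotype. The muscle was gastrocnemius and soleus. The labels do not state whether the ERRα3SA mice were fasted and do not pair livers with muscles of the same animal. Both alleles are present in every cell type from conception, so the groups do not separate an effect in hepatocytes or fibres from an effect elsewhere in the body. Total counts per sample ran from 35871419 to 48317108 in the insulin experiment and from 20481405 to 33412022 in the ERRα3SA experiment.

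Complex II (succinate dehydrogenase) oxidises succinate and passes the electrons to ubiquinone. Complex III carries them from ubiquinol to cytochrome c, and complex IV (cytochrome c oxidase) from cytochrome c to oxygen; both pump protons across the inner mitochondrial membrane. Liver and striated muscle use different isoforms of some complex IV subunits, and ERRα is known as a regulator of nuclear genes for oxidative phosphorylation.

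Levels are given as CPM, a gene's counts scaled to a common library size, with library sizes normalised by the TMM method of edgeR. Fold changes come from edgeR's quasi-likelihood test over all genes that passed its filter on low counts, with p adjusted by the Benjamini-Hochberg method over all genes tested. Unless stated otherwise, a gene is said to have risen or fallen where unadjusted p was under 0.05 and the groups differed at least 1.2-fold, the threshold the authors used. Log2 fold changes are given ± their standard error. In each comparison, members with the smallest p are given with their values in each sample. A lack of overlap in those values follows in part from that choice and is no further support. The share of all tested genes that met the same threshold is given with the counts of each comparison. Counts that only show what leaving out a further library does stand without it. Such counts therefore cannot tell a change in the members from a change in all genes.

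Several libraries stood apart. Replicate 1 of ERRα3SA muscle had 19.3% of its counts in the mitochondrial genome, against 9.15% to 10.8% in the other 7 muscles. Counts were found for 16984 genes in it and for 19794 to 20878 genes in those muscles. Its 35 measurable members ran from −2.79 to 1.68 log2 units from the WT muscle mean, 14 above it and 21 below. Across those members the difference from the WT mean correlated with transcript GC content at r = −0.56, and across 12361 genes at r = −0.54, while the other 3 ERRα3SA muscles had r of 0.33, 0.33 and 0.39 across members and 0.36, 0.37 and 0.23 across genes. These correlations are across genes of 1 sample, and genes are not independent replicates. Replicate 4 of ERRα3SA muscle had summed stellate cell and fibroblast markers of 2311 CPM, against 505 to 801 CPM in the other muscles, and leukocyte markers of 52.8 CPM, against 8.93 to 13.8 CPM.

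In ERRα3SA liver, replicate 4 had the lowest value of its group in 30 of 32 members, where it was lowest in 36.1% of all genes, with a median log2 difference of −0.51 from the other 3 livers. The 5 hepatocyte markers summed to 57486 CPM in it and to 86919 to 99659 CPM in those livers. In WT liver given insulin, replicate 2 had the highest value of its group in 23 of 32 members, where it was highest in 30.9% of all genes, and 1.88% of its counts were mitochondrial against 3.88% to 4.17% in the other 3. Counts were found for 14507 genes in it and for 16349 to 16591 genes in those livers. That replicate was lowest in 4 members, *Sdha* among them. Replicate 2 of WT liver given saline was lowest of its group in 25 of 31 members and 29.1% of all genes, and replicate 2 of ERRα-/- liver given insulin in 23 of 31 members and 35.7% of genes. Replicate 1 of WT liver in the ERRα3SA experiment was highest of its group in 25 of 33 members and 26.1% of genes, and above the mean of the other 3 in all 33 members. Replicate 3 of WT liver given insulin held skeletal muscle markers at 69.8 CPM. Results that rest on replicate 1 of ERRα3SA muscle, replicate 4 of ERRα3SA liver or replicate 2 of WT liver given insulin are given with and without it; whether RNA quality or cell composition had a part in those results was not tested.

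The tissue labels matched their markers. The 5 hepatocyte markers, of which *Alb* was the most abundant, summed to 0.192 to 1.34 CPM in the muscles, where between 1 and 4 of the 5 were at 0. The 5 skeletal muscle markers summed to 79878 to 178473 CPM in muscle. *Esrra* itself was used to check the genotype labels. It stood at 32.3, 51.3, 42.7 and 40.5 CPM in WT livers given saline and 53.7, 96.5, 56.1 and 59.0 CPM in WT livers given insulin. Knockout livers had 1.63, 0.703, 1.15 and 1.04 CPM after saline and 0.833, 0.576 and 0.298 CPM after insulin. Every knockout library was thus far below every WT library, and the remaining reads do not show whether protein is made. In the ERRα3SA experiment, WT livers had 27.7, 27.1, 28.2 and 29.5 CPM and ERRα3SA livers 29.4, 25.4, 21.1 and 19.2 CPM. WT muscles had 90.2, 82.7, 67.0 and 78.1 CPM and ERRα3SA muscles 24.3, 133, 127 and 94.6 CPM, the lowest of these in replicate 1. A knock-in allele leaves the transcript in place, so the counts do not tell ERRα3SA from WT.

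**Figure D1:**
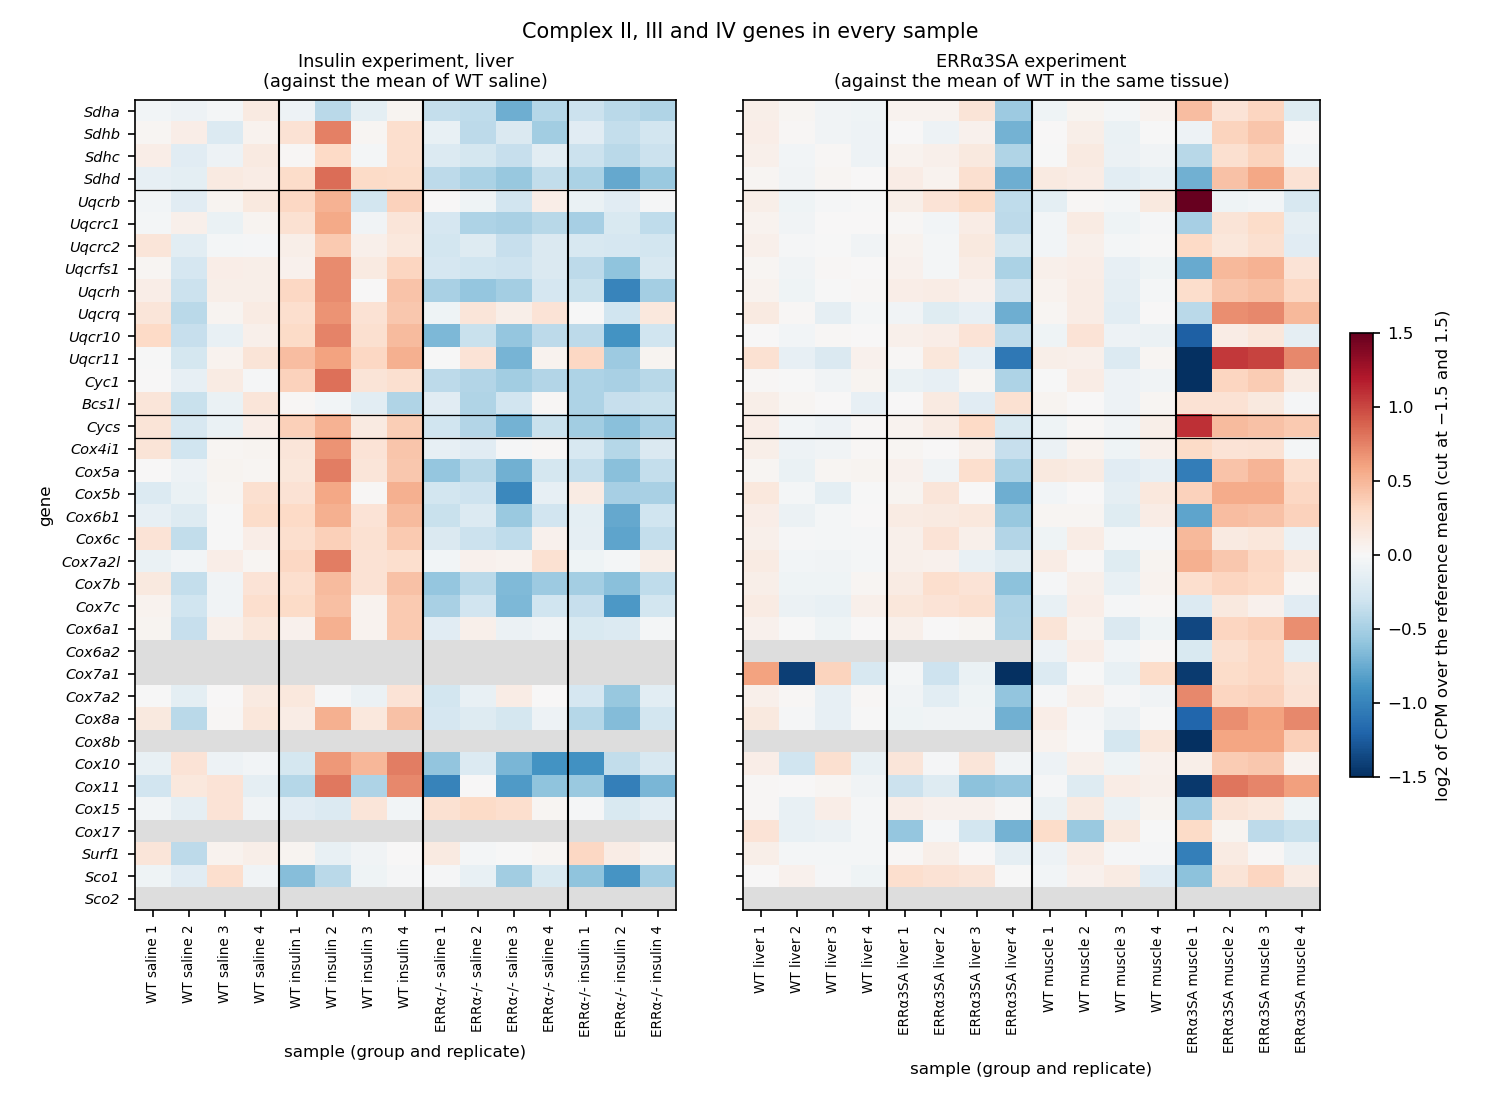
Level of each member in every sample as log2 CPM minus the mean of WT livers given saline (insulin experiment) or of WT in the same tissue (ERRα3SA experiment), on a colour scale, samples from left to right by group and members from top to bottom by complex; grey marks members with too few counts. ERRα-/- livers are mostly below WT, and replicate 1 of ERRα3SA muscle, replicate 4 of ERRα3SA liver and replicate 2 of WT liver given insulin differ from their groups in many members.

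The first question is what the loss of ERRα did in liver, with and without insulin. After saline, the 15 members that fell in ERRα-/- against WT livers included 3 subunits of complex II, 5 of complex III and 5 of complex IV with cytochrome c and *Cox10*. After insulin 25 members fell, among them all 11 complex IV subunits that could be tested. No member rose in either comparison. After saline, 15 of 33 members tested fell and 0 rose, where 5.3% of all genes fell and 5.98% rose; the median log2 fold change of the members was −0.27, and that of all genes was 0.00. After insulin, 25 of 32 fell and 0 rose, where 5.42% of all genes fell and 4.57% rose, and the median was −0.63. The 5 hepatocyte markers, with *Alb* the most abundant and 0 of them at 0, summed to 87187, 85315, 87783 and 93008 CPM in WT and 104641, 104743 and 98097 CPM in ERRα-/- livers after insulin, without overlap. After saline they summed to 93325, 89250, 87077 and 93186 CPM in WT and 103632, 84040, 106375 and 82040 CPM in ERRα-/- livers, which overlapped. Their part in the result was not tested. Bulk RNA cannot tell fewer cells of a type from less RNA per cell, and the 2 comparisons use different WT livers.

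At an adjusted p under 0.05 the count was 0 in both comparisons by edgeR's quasi-likelihood test, where 0.0816% of all genes passed after saline and 0.0585% after insulin. The counts at unadjusted p under 0.05, in either direction, were 17 and 25, where 12.1% and 10% of all genes passed. By DESeq2 at an adjusted p under 0.05 they were 7 and 16, where 1.84% and 1.76% of all genes passed. Without replicate 2 of WT liver given insulin, the library that was high in most members, 25 members fell after insulin, 24 of them the same, with *Sdha* in and *Cox11* out; 0 rose and the median was −0.52. There the adjusted p was under 0.05 for *Sdhd*, *Cyc1*, *Cycs* and *Cox7b* (edgeR quasi-likelihood, Benjamini-Hochberg). In that fit 7.19% of all genes fell, 5.99% rose, 13.4% had unadjusted p under 0.05 and 0.356% passed the adjusted threshold.

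Complex II has a catalytic part, *Sdha* with the flavin and *Sdhb* with the iron-sulfur clusters, and a membrane anchor of *Sdhc* and *Sdhd*. The anchor subunit *Sdhd* stood at 119, 118, 144 and 141 CPM in WT and 99.5, 94.2, 87.8 and 101 CPM in ERRα-/- livers after saline. After insulin it stood at 157, 234, 159 and 158 CPM in WT and 93.7, 76.4 and 88.9 CPM in ERRα-/- livers. The genotypes did not overlap under either treatment. Its log2 fold change was −0.45 ± 0.10 (adjusted p = 0.175) after saline and −1.05 ± 0.18 (adjusted p = 0.102) after insulin, in edgeR (quasi-likelihood, Benjamini-Hochberg). *Sdha* was at 446, 438, 451 and 506 CPM in WT and 358, 355, 278 and 341 CPM in ERRα-/- livers after saline, again without overlap. Its log2 fold change was −0.47 ± 0.11 (adjusted p = 0.181). After insulin the values of *Sdha* overlapped, at 438, 347, 417 and 474 CPM in WT and 368, 348 and 336 CPM in ERRα-/- livers, with a log2 fold change of −0.27 ± 0.14 (adjusted p = 0.554).

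The iron-sulfur subunit *Sdhb* had 100.02, 105, 84.8 and 101 CPM in WT and 90.2, 74.5, 83.8 and 68.0 CPM in ERRα-/- livers after saline, which overlapped. In edgeR (quasi-likelihood, Benjamini-Hochberg) its log2 fold change was −0.30 ± 0.12 (adjusted p = 0.322), and unadjusted p was above 0.05 when any of 4 libraries was left out. The log2 fold change was then −0.28 without ERRα-/- replicate 2, −0.24 without ERRα-/- replicate 4, −0.29 without WT replicate 1 and −0.27 without WT replicate 2. After insulin *Sdhb* stood at 114, 165, 99.3 and 116 CPM in WT and 86.8, 76.2 and 80.5 CPM in ERRα-/- livers, with no overlap and a log2 fold change of −0.62 ± 0.18 (adjusted p = 0.26). The other anchor subunit, *Sdhc*, had 98.5, 120.4, 96.0 and 116 CPM in WT and 78.1, 73.6 and 78.0 CPM in ERRα-/- livers after insulin. Every WT value was above every knockout value, and the log2 fold change was −0.50 ± 0.13 (adjusted p = 0.205).

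In complex III, 5 of 9 subunits fell after saline and 8 of 9 after insulin, all but *Uqcrb*. Cytochrome c1, *Cyc1*, hands electrons to cytochrome c. It had 119.7, 109.7, 130.1 and 118 CPM in WT and 90.6, 87.9, 82.9 and 88.0 CPM in ERRα-/- livers after saline. After insulin it had 152, 212, 137 and 141 CPM in WT and 86.5, 85.1 and 89.7 CPM in ERRα-/- livers. The knockout values lay close together and below all WT values in both cases. In edgeR (quasi-likelihood, Benjamini-Hochberg) its log2 fold change was −0.45 ± 0.09 (adjusted p = 0.131) after saline and −0.89 ± 0.17 (adjusted p = 0.151) after insulin. The core subunit *Uqcrc1* had 199, 214, 189 and 209.9 CPM in WT and 171, 147, 145 and 153 CPM in ERRα-/- livers after saline, with no overlap and a log2 fold change of −0.40 ± 0.10 (adjusted p = 0.182). *Uqcrh*, the hinge subunit that binds near cytochrome c1, had 65.9, 49.4, 65.7 and 65.4 CPM in WT and 44.0, 41.1, 43.3 and 51.8 CPM in ERRα-/- livers after saline. Those overlapped through WT replicate 2, the lowest WT value, and the log2 fold change was −0.45 ± 0.12 (adjusted p = 0.214).

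The small subunit *Uqcr10* had 44.1, 60.7, 42.8 and 50.2 CPM in WT and 27.5, 19.5 and 29.4 CPM in ERRα-/- livers after insulin, with no overlap and a log2 fold change of −0.97 ± 0.18 (adjusted p = 0.151). Cytochrome c, the soluble carrier between complexes III and IV, followed the same course. *Cycs* had 73.1, 54.3, 59.9 and 68.9 CPM in WT and 52.1, 47.3, 39.1 and 50.6 CPM in ERRα-/- livers after saline. After insulin there were 81.8, 91.6, 70.4 and 82.9 CPM in WT and 44.8, 41.4 and 45.7 CPM in ERRα-/- livers. Neither pair overlapped, and after insulin the log2 fold change was −0.90 ± 0.13 (adjusted p = 0.0506), the smallest adjusted p of the members in edgeR (quasi-likelihood, Benjamini-Hochberg). In 28.5% of its 50-base stretches the *Cycs* transcript is shared with another annotated gene, so some of its reads may have been lost or assigned elsewhere. The other subunits of complex III that fell after insulin had log2 fold changes from −0.98 for *Uqcrh* to −0.45 for *Uqcrq*. The assembly factor *Bcs1l*, which inserts the Rieske protein, had a log2 fold change of −0.21 ± 0.16 (adjusted p = 0.652) after saline and −0.24 ± 0.18 (adjusted p = 0.708) after insulin.

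In complex IV, *Cox5a* is a subunit on the matrix side. It had 34.2, 32.2, 34.9 and 34.7 CPM in WT and 22.8, 25.5, 20.6 and 28.4 CPM in ERRα-/- livers after saline. After insulin it had 38.2, 58.1, 38.5 and 44.8 CPM in WT and 26.5, 22.0 and 26.5 CPM in ERRα-/- livers. No knockout value reached a WT value under either treatment; the log2 fold change was −0.48 ± 0.11 (adjusted p = 0.176) after saline and −0.85 ± 0.17 (adjusted p = 0.166) after insulin in edgeR (quasi-likelihood, Benjamini-Hochberg). The small membrane subunit *Cox7b* had 56.9, 40.1, 49.5 and 59.4 CPM in WT and 34.4, 38.9, 32.5 and 35.3 CPM in ERRα-/- livers after saline. After insulin it had 61.1, 71.5, 59.6 and 69.9 CPM in WT and 36.2, 33.3 and 39.4 CPM in ERRα-/- livers. Its values did not overlap either, with a log2 fold change of −0.54 ± 0.13 (adjusted p = 0.178) after saline and −0.86 ± 0.13 (adjusted p = 0.0534) after insulin. *Cox8a*, the form of subunit VIII found in liver, had 74.3, 100.1, 76.9 and 93.8 CPM in WT and 51.3, 43.7 and 56.8 CPM in ERRα-/- livers after insulin, with no overlap and a log2 fold change of −0.78 ± 0.16 (adjusted p = 0.163). The other 8 complex IV subunits tested all fell after insulin, from −0.78 for *Cox7c* to −0.40 for *Cox7a2*.

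The complex IV assembly factors were mixed. *Cox10*, which farnesylates haem for complex IV, had 13.6, 17.0, 14.0 and 14.3 CPM in WT and 9.76, 12.7, 9.14 and 7.94 CPM in ERRα-/- livers after saline. There was no overlap, and the log2 fold change was −0.57 ± 0.16 (adjusted p = 0.214) in edgeR (quasi-likelihood, Benjamini-Hochberg). After insulin *Cox10* and the copper factor *Cox11* fell, with log2 fold changes of −0.95 and −1.03. *Cox15*, *Cox17*, *Surf1* and *Sco1* did not pass in either comparison, and *Surf1* was at 0.04 after saline and 0.18 after insulin. Of the exon bases of *Cox11*, 48.3% lie in exons of other genes, with *Tom1l1* the most, which limits what its counts can say.

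The fall was not confined to the members, as complex I and ATP synthase subunits fell after saline and after insulin. After insulin ATP synthase had a larger share and median than the members. Of 35 further genes of complexes II to IV, mostly assembly factors and rarer isoforms, 27 were tested after saline and 2 fell, *Coa5* and *Smim20*, with 0 higher and a median of −0.01. A share of 2 in 27 is near the 5.3% of all genes that fell after saline. After insulin 28 were tested and 9 fell, *Coa3*, *Coa5*, *Cox18*, *Higd2a*, *Ndufa4*, *Smim20*, *Taco1*, *Ttc19* and *Uqcc1*, with 0 higher and a median of −0.33. For complex I, 14 of 36 subunits fell and 1 rose after saline, and 22 fell and 0 rose after insulin, with medians of −0.13 and −0.46. For ATP synthase, 6 of 16 subunits tested fell after saline and 15 of 16 after insulin, with medians of −0.25 and −0.73 and 0 higher in either. The 4 subunits of complexes III and IV encoded in the mitochondrial genome had a median of −0.34 after saline, with 2 lower, and −0.04 after insulin, with 0 lower and 0 higher at unadjusted p under 0.05 by edgeR. Without replicate 2 of WT liver given insulin, the differences after insulin had a median of −0.20 for these 4, with 0 lower and 0 higher. In that fit 7 of 27 further genes fell, with a median of −0.31, and 19 of 36 complex I and 15 of 16 ATP synthase subunits, with medians of −0.35 and −0.59.

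**Figure D2:**
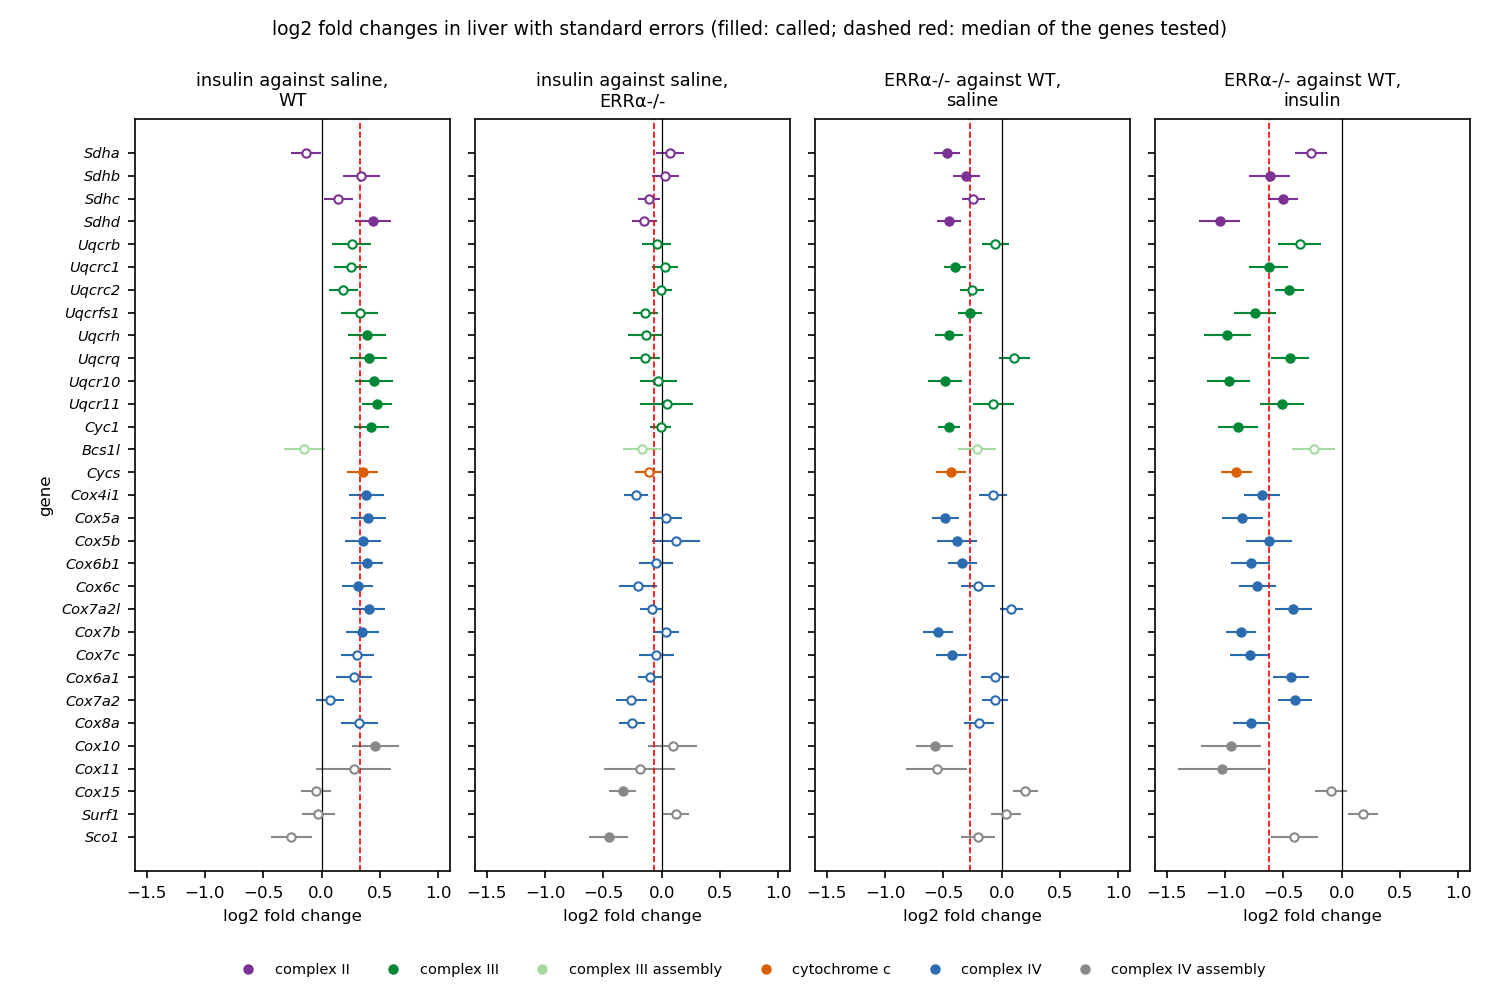
Log2 fold change of each member in the 4 liver comparisons of the insulin experiment (horizontal axis, log2 units), with standard errors as bars and members ordered by complex; *Cox6a2*, *Cox8b*, *Sco2*, *Cox7a1* and *Cox17* are not drawn because their liver counts are low. For most members the ERRα-/- against WT value after insulin lies furthest to the left, *Sdha* being among the exceptions. Insulin in WT liver lies mostly to the right of 0.

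The promoters of the members are shown for *Sdhd*, *Cycs* and *Uqcrh* because these genes fell in the knockout in both comparisons and stand for complex II, cytochrome c and complex III. The sequences are from RefSeq on build GRCm38.p6, all on the minus strand, written 5′ to 3′: *Sdhd* chr9:50603800-50603949, *Cycs* chr6:50566570-50566669 and *Uqcrh* chr4:116075071-116075170. Capitals mark matches on either strand to TNAAGGTCA, the estrogen-related receptor element, to GCGCANGCG, the core of the site of the factor NRF-1, and to CCGGAAG, the core of the site of ETS family factors.
Sdhd: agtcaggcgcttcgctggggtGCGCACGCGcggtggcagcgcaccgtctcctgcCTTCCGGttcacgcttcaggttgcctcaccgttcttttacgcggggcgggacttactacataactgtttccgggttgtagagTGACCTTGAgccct
Cycs: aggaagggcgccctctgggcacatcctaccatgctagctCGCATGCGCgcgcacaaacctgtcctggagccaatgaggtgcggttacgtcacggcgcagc
Uqcrh: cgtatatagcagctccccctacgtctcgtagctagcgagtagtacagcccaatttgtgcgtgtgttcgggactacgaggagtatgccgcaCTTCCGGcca

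Promoter windows of 250 bases before to 50 after the start site were at hand for 27 of the 36 members. TNAAGGTCA was found in 1 of the 27, *Sdhd*, where it lies on the reverse strand past the start site, and in 1.43% of 27025 genes with a window. GCGCANGCG was found in 6 of the 27 (22.2%), *Cox6a1*, *Cycs*, *Sdha*, *Sdhd*, *Uqcr11* and *Uqcrc1*, and in 7.03% of genes. CCGGAAG was found in 12 of the 27 (44.4%) and in 9.93% of genes. No motif was matched for *Cox5a*, *Cox5b*, *Cox7b*, *Cox7c*, *Uqcr10* and *Uqcrfs1*, which also fell in both comparisons. No promoter of complex IV is shown, and the promoters shown all hold a match. The last 2 motifs were chosen after the expression values had been seen. A match of letters is a description of the sequence and does not show binding.

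The next question is what insulin did 4 h after injection in WT and in ERRα-/- livers. In WT livers 5 of 9 complex III and 7 of 12 complex IV subunits rose after insulin, with medians over those tested of 0.39 and 0.34 log2 units; without 1 WT library only *Uqcr11* and *Cox6b1* of them did. In ERRα-/- livers 0 subunits of these complexes passed in either direction, and 2 assembly factors fell. In WT livers 15 of 33 members tested rose and 0 fell, where 8.34% of all genes rose and 8.91% fell, with a median log2 fold change of 0.33. In ERRα-/- livers 0 of 32 rose and 2 fell, where 8.05% of all genes rose and 9.14% fell, with a median of −0.07. A share of 2 in 32 is no higher than that of all genes that fell. At an adjusted p under 0.05 the count was 0 in both by edgeR's quasi-likelihood test, where 3.16% of all genes passed in WT and 2.91% in ERRα-/- livers. The counts at unadjusted p under 0.05, in either direction, were 15 and 3, where 17.5% and 17.8% of all genes passed. By DESeq2 at an adjusted p under 0.05 they were 1 and 0, where 6.95% and 7.22% of all genes passed. Both counts are under the share of all genes. These comparisons share their saline and insulin livers with the genotype comparisons above.

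The WT count rested on single libraries. Without replicate 2 of WT liver given insulin, 3 of 33 members rose, *Sdhd*, *Uqcr11* and *Cox6b1*, and 0 fell, with 6 at unadjusted p under 0.05 and a median of 0.25. In that fit 7.72% of all genes rose, 7.86% fell, 15.8% had unadjusted p under 0.05 and 2.66% passed the adjusted threshold. The shares of 3 and 6 in 33 are near those of all genes. Insulin replicate 3 was lowest of its group in 20 of 32 members and in 23.8% of all genes, and the count without it was 20. The count was 9 without insulin replicate 4, 7 without saline replicate 2 and 9 without saline replicate 3. In ERRα-/- livers it was 1 without insulin replicate 2 and 1 without saline replicate 2. Shares of all genes are not given for these last fits, so their counts cannot tell a change in the members from a general one.

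Among complex II subunits only *Sdhd* passed in WT livers, at 119, 118, 144 and 141 CPM after saline and 157, 234, 159 and 158 CPM after insulin. Insulin replicate 2 was far above the others, and the treatments did not overlap. Its log2 fold change was 0.44 ± 0.16 (adjusted p = 0.171) with all libraries and 0.27 ± 0.11 (adjusted p = 0.262) without that replicate, in edgeR (quasi-likelihood, Benjamini-Hochberg). *Sdhd* in ERRα-/- livers had a log2 fold change of −0.15 ± 0.11 (adjusted p = 0.514).

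All 9 complex III subunits had positive fold changes in WT livers and 5 passed. The small subunit *Uqcr11* had 35.1, 29.3, 36.6 and 40.4 CPM after saline and 48.6, 53.5, 43.8 and 51.1 CPM after insulin, without overlap. In edgeR (quasi-likelihood, Benjamini-Hochberg) the log2 fold change was 0.48 ± 0.13 (adjusted p = 0.0777), and without insulin replicate 2 it was 0.43. *Cyc1*, whose values are given above, had a log2 fold change of 0.43 ± 0.15 (adjusted p = 0.173) with no overlap; without insulin replicate 2 the log2 fold change was 0.26, under the fold threshold. *Uqcr10* had 44.6, 28.6, 33.6 and 38.1 CPM after saline and 44.1, 60.7, 42.8 and 50.2 CPM after insulin, which overlapped, with a log2 fold change of 0.45 ± 0.16 (adjusted p = 0.187). Unadjusted p for *Uqcr10* was above 0.05 without insulin replicate 2, with a log2 fold change of 0.33, without saline replicate 2, with 0.35, and without saline replicate 3, with 0.41. *Cycs* had a log2 fold change of 0.35 ± 0.13 (adjusted p = 0.203) in WT and −0.11 ± 0.12 (adjusted p = 0.699) in ERRα-/- livers.

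In complex IV, 7 of 12 subunits tested rose in WT livers. *Cox7a2l* had 51.3, 53.3, 59.0 and 56.1 CPM after saline and 67.9, 93.2, 63.7 and 65.6 CPM after insulin. All insulin values were above all saline values, and in edgeR (quasi-likelihood, Benjamini-Hochberg) the log2 fold change was 0.40 ± 0.14 (adjusted p = 0.166). *Cox6b1*, a subunit facing the intermembrane space, had 52.0, 49.5, 56.2 and 68.5 CPM after saline and 69.8, 82.1, 65.3 and 78.5 CPM after insulin, overlapping by 1 library, with a log2 fold change of 0.39 ± 0.14 (adjusted p = 0.166). *Cox5a* had a log2 fold change of 0.40 ± 0.15 (adjusted p = 0.187) with no overlap. Without insulin replicate 2, *Cox7a2l* was at 0.26 and *Cox5a* at 0.25, both under the fold threshold. Of the isoforms expressed in liver, *Cox6a1*, *Cox7a2* and *Cox8a* had log2 fold changes of 0.28, 0.07 and 0.32 in WT livers and did not pass.

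Among assembly factors, *Cox10* rose in WT livers at 0.46. In ERRα-/- livers the haem A synthase *Cox15* had 35.1, 36.5, 35.5 and 30.3 CPM after saline and 29.5, 25.6 and 26.8 CPM after insulin. All 3 insulin values were below the 4 saline values, and the log2 fold change was −0.33 ± 0.11 (adjusted p = 0.145) in edgeR (quasi-likelihood, Benjamini-Hochberg). *Sco1*, a copper carrier for complex IV, had 13.4, 12.6, 9.49 and 11.6 CPM after saline and 8.95, 7.38 and 9.58 CPM after insulin, which overlapped, with a log2 fold change of −0.45 ± 0.17 (adjusted p = 0.183). Unadjusted p for *Sco1* was above 0.05 without insulin replicate 2, with a log2 fold change of −0.35, without saline replicate 1, with −0.38, and without saline replicate 2, with −0.41.

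Of the further complex II to IV genes, 6 of 27 tested rose with insulin in WT livers, *Coa3*, *Cox14*, *Higd1a*, *Sdhaf4*, *Smim20* and *Ttc19*, with a median of 0.16. The knockout livers had 2 of 28 lower, *Sdhaf2* and *Taco1*, again a share no higher than that of all genes that fell. In WT livers 7 of 36 complex I and 7 of 16 ATP synthase subunits rose, with medians of 0.27 and 0.26, and in ERRα-/- livers the medians were −0.03 and −0.11. Without insulin replicate 2, WT livers had 3 of 27 further genes, 1 of 36 complex I and 3 of 16 ATP synthase subunits higher, with medians of 0.07, 0.16 and 0.15. The 4 mitochondrially encoded subunits had a median of −0.17 in WT livers with all libraries and −0.03 without insulin replicate 2.

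Whether the insulin response differed between genotypes was tested as an interaction, ERRα-/- minus WT, with all 4 liver groups in 1 fit. No single difference of a member survived adjustment for all genes. The interaction was lower at unadjusted p under 0.05 in 10 of 33 members and higher in 0, where 4.75% of all genes were lower and 4.04% higher, with a median log2 difference of −0.37. At an adjusted p under 0.05 the count was 0 by edgeR's quasi-likelihood test, where 0.0% of all genes passed, and 0 by DESeq2, where 0.136% did. Without replicate 2 of WT liver given insulin 8 members were lower and 0 higher, with a median of −0.30. In that fit 4.59% of all genes were lower, 3.76% higher and 0.0% passed after adjustment. The count was 4 without replicate 2 of ERRα-/- liver given insulin and 6 without replicate 2 of WT liver given saline.

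*Sdhd*, the 1 complex II subunit to pass, had a log2 difference of −0.58 ± 0.20 (adjusted p = 0.473) in edgeR (quasi-likelihood, Benjamini-Hochberg). *Uqcrq*, a small ubiquinone-binding subunit of complex III, had 131, 87.5, 119 and 126 CPM after saline and 138, 185, 135 and 153 CPM after insulin in WT livers. Knockout livers had 111, 132, 123 and 134 CPM after saline and 116, 94.4 and 129.5 CPM after insulin. The WT values separated by treatment and the knockout values did not; the difference was −0.54 ± 0.21 (adjusted p = 0.518). For *Cycs* it was −0.45 ± 0.18 (adjusted p = 0.519), and for *Cyc1* −0.43 ± 0.18 (adjusted p = 0.543). Without replicate 2 of WT liver given insulin that of *Cyc1* was −0.27 ± 0.12 (adjusted p = 0.589). In complex IV, *Cox4i1*, whose product is a regulatory subunit that binds ATP, had 157, 111, 140.5 and 141 CPM after saline and 156, 219, 159 and 183 CPM after insulin in WT livers. Knockout livers had 126, 122, 135 and 139 CPM after saline and 117, 103 and 118 CPM after insulin, all 3 insulin values below the saline values. Its difference was −0.60 ± 0.19 (adjusted p = 0.445), that of *Cox8a* −0.57 ± 0.20 (adjusted p = 0.493) and that of *Cox7a2l* −0.48 ± 0.18 (adjusted p = 0.5).

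Unadjusted p of some of these differences rose above 0.05 when 1 library was left out. For *Cyc1* the log2 difference was −0.42 without ERRα-/- insulin replicate 1, −0.41 without ERRα-/- insulin replicate 2 and −0.39 without WT saline replicate 2. Without ERRα-/- insulin replicate 2 it was −0.43 for *Uqcrq* and −0.41 for *Cycs*. Of the further complex II to IV genes, 6 of 29 had a lower interaction, *Coa3*, *Cox19*, *Sdhaf2*, *Sdhaf4*, *Smim20* and *Taco1*, and 0 a higher one. For complex I it was 4 of 36 lower, and for ATP synthase 8 of 16. Without replicate 2 of WT liver given insulin these counts were 4, 2 and 6.

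In the ERRα3SA experiment the first question is how liver and muscle differ in WT mice, since complex IV has tissue isoforms. WT muscle had more RNA of most shared subunits, cytochrome c among them, and exchanged *Cox6a1* for *Cox6a2*, *Cox8a* for *Cox8b* and, in part, *Cox7a2* for *Cox7a1*. Here a gene is said to be higher or lower where the adjusted p was under 0.05 and the tissues differed at least 1.2-fold. Of 35 members tested, 21 were higher in muscle and 8 lower, where 41.8% of all genes were higher and 42.1% lower, with a median log2 fold change of 0.55. Among those higher, *Cox6a2* and *Cox8b* failed the filter on low counts in livers alone and passed it here through their muscle counts, so these calls were set by the filter. Since most genes differ between the tissues, these counts say little about the members in particular. TMM places the tissues on a common scale by assuming that most genes do not differ, and without a filter on low counts the median of all genes moved by 0.15.

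In complex II, *Sdhb* had 240.3, 227, 217 and 212 CPM in WT liver and 324, 343, 300.3 and 322 CPM in WT muscle, with no overlap. The log2 fold change was 0.56 ± 0.07 (adjusted p = 4.36e-06) in edgeR (quasi-likelihood, Benjamini-Hochberg). *Sdha* had 728, 697, 663 and 653 CPM in liver and 838, 897, 857 and 905 CPM in muscle, with a log2 fold change of 0.38 ± 0.07 (adjusted p = 0.000247). *Sdhc* had 183, 169, 176 and 164 CPM in liver and 209.7, 230.1, 197 and 202 CPM in muscle, with a log2 fold change of 0.31 ± 0.07 (adjusted p = 0.000782). All 3 were higher in every muscle than in any liver. When the groups of both genotypes were fitted together, *Sdha* and *Sdhc* no longer passed, at 0.35 (adjusted p = 0.0543) and 0.28 (adjusted p = 0.107). *Sdhd* went the other way, at −0.29, and at −0.26 by DESeq2, under the fold threshold.

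The largest difference in complex III with cytochrome c was that of *Cycs*, at 111, 101, 98.0 and 105 CPM in liver and 284, 303, 289 and 318 CPM in muscle, with no overlap. In edgeR (quasi-likelihood, Benjamini-Hochberg) the log2 fold change was 1.56 ± 0.07 (adjusted p = 3.19e-11). *Uqcrc1* had 341, 318, 331 and 331 CPM in liver and 687, 770.4, 678 and 702 CPM in muscle, with a log2 fold change of 1.14 ± 0.07 (adjusted p = 1.8e-09). *Uqcr10* had 102, 99.0, 103 and 102 CPM in liver and 187, 226, 185 and 184 CPM in muscle, with a log2 fold change of 0.98 ± 0.07 (adjusted p = 1.42e-08). These also separated the tissues completely. *Uqcrq* and *Uqcr11* were lower in muscle, at −0.53 and −0.41. Among assembly factors *Cox10* was higher in muscle, at 1.82, and *Surf1* and *Sco1* lower, at −0.76 and −0.94.

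Of the subunit VI isoforms, *Cox6a1* had 345, 328, 317 and 332 CPM in WT liver and 21.6, 19.6, 16.2 and 17.9 CPM in WT muscle. ERRα3SA livers had 347, 331, 338 and 242 CPM and ERRα3SA muscles 7.32, 23.6, 24.2 and 30.4 CPM. Its tissue log2 fold change was −4.10 ± 0.09 (adjusted p = 1.93e-14) in edgeR (quasi-likelihood, Benjamini-Hochberg). The muscle form *Cox6a2* had 516, 582, 529 and 550.3 CPM in WT and 463, 643, 676 and 493 CPM in ERRα3SA muscles. In livers it had 0.479, 0, 0 and 0.134 CPM in WT and 0, 0.0944, 0.245 and 0.0481 CPM in ERRα3SA. It was close to or at 0 in every liver, and its fitted tissue log2 fold change was 11.59 by edgeR and 11.81 by DESeq2. Those values rest on 18 counts over the 4 WT livers, 15 of them in replicate 1, so the size of the difference is uncertain. In livers of the insulin experiment *Cox6a1* had 139, 107, 143 and 153 CPM in WT after saline, 141, 197, 141 and 178 CPM in WT after insulin, 120.5, 143, 127 and 130.4 CPM in ERRα-/- after saline and 116, 118 and 133 CPM in ERRα-/- after insulin. In the same groups *Cox6a2* had 0, 0, 0.0229 and 0.116 CPM, 0.239, 0, 0.454 and 0 CPM, 0.105, 0.0485, 0 and 0 CPM and 0, 0 and 0 CPM. Per kilobase of exon, *Cox6a2* made up 96.1% to 97.1% of the pair in WT muscle, 94.4% to 98.5% in ERRα3SA muscle and at most 0.332% in any liver.

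Of the subunit VIIa isoforms, *Cox7a2* had 119, 114, 104 and 115 CPM in WT liver and 86.3, 91.8, 86.3 and 84.1 CPM in WT muscle. In ERRα3SA it had 109, 101, 108 and 74.9 CPM in liver and 143, 109, 111 and 101 CPM in muscle. This form was thus expressed in both tissues, with a tissue log2 fold change of −0.34 ± 0.06 (adjusted p = 0.000157) in edgeR (quasi-likelihood, Benjamini-Hochberg). *Cox7a1*, the form of heart and muscle, had 137, 158, 147 and 191 CPM in WT and 58.7, 192, 196 and 182 CPM in ERRα3SA muscles. Livers had 1.60, 0.396, 1.33 and 0.893 CPM in WT and 1.04, 0.85, 0.98 and 0.241 CPM in ERRα3SA, for a tissue log2 fold change of 7.22. It was low but present in every liver of this experiment. In livers of the insulin experiment *Cox7a2* had 38.7, 35.3, 39.0 and 42.7 CPM in WT after saline, 43.6, 38.6, 36.7 and 45.0 CPM in WT after insulin, 32.1, 35.9, 42.1 and 39.2 CPM in ERRα-/- after saline and 32.7, 26.2 and 34.9 CPM in ERRα-/- after insulin. In the same groups *Cox7a1* had 0.337, 0.357, 0.251 and 0.116 CPM, 0.0531, 0, 0.406 and 0.285 CPM, 0, 0, 0.261 and 0 CPM and 0.026, 0 and 0.0543 CPM. *Cox7a1* made up 73.8% to 80.04% of the pair per kilobase in WT muscle, and 42.0% to 76.1% in ERRα3SA muscle with the lowest share in replicate 1.

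Of the subunit VIII isoforms, *Cox8a* had 218, 196, 181 and 197 CPM in WT liver and 18.6, 17.2, 16.4 and 17.3 CPM in WT muscle. In ERRα3SA it had 189.7, 190.3, 191 and 120.1 CPM in liver and 7.60, 28.3, 26.5 and 28.7 CPM in muscle. Its tissue log2 fold change was −3.48 ± 0.08 (adjusted p = 2.58e-14) in edgeR (quasi-likelihood, Benjamini-Hochberg). *Cox8b*, the muscle form, had 224, 215, 179 and 243 CPM in WT and 30.9, 325, 325 and 276 CPM in ERRα3SA muscles. Livers had 0.0958, 0, 0 and 0 CPM in WT and 0.0941, 0, 0.049 and 0.0481 CPM in ERRα3SA. Over the 4 WT muscles *Cox8b* had 22906 counts and over the 4 WT livers 3, a ratio of 7348 after normalisation with a 95% counting interval of 2514 to 35633. That interval treats summed reads as independent and leaves out variation between animals. All 3 liver counts were in replicate 1. Without that library the liver count was 0, and the fitted log2 fold change was 15.42 in place of 12.65. A fold over a group at 0 counts cannot be measured, so 15.42 does not estimate its size. The size of this difference therefore rests on 1 library, and its direction does not. In livers of the insulin experiment *Cox8a* had 76.6, 52.2, 69.5 and 77.4 CPM in WT after saline, 74.3, 100.1, 76.9 and 93.8 CPM in WT after insulin, 57.7, 60.3, 57.3 and 65.2 CPM in ERRα-/- after saline and 51.3, 43.7 and 56.8 CPM in ERRα-/- after insulin. In the same groups *Cox8b* had 0, 0, 0.0229 and 0.0462 CPM, 0, 0, 0.167 and 0 CPM, 0, 0.097, 0 and 0 CPM and 0, 0 and 0 CPM. Its share of the pair per kilobase was 94.9% to 96.03% in WT muscle and 87.5% to 95.5% in ERRα3SA muscle, lowest in replicate 1. The highest liver values of *Cox6a2* and *Cox8b* in the insulin experiment were in replicate 3 of WT liver given insulin, the library with muscle markers at 69.8 CPM.

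**Figure D3:**
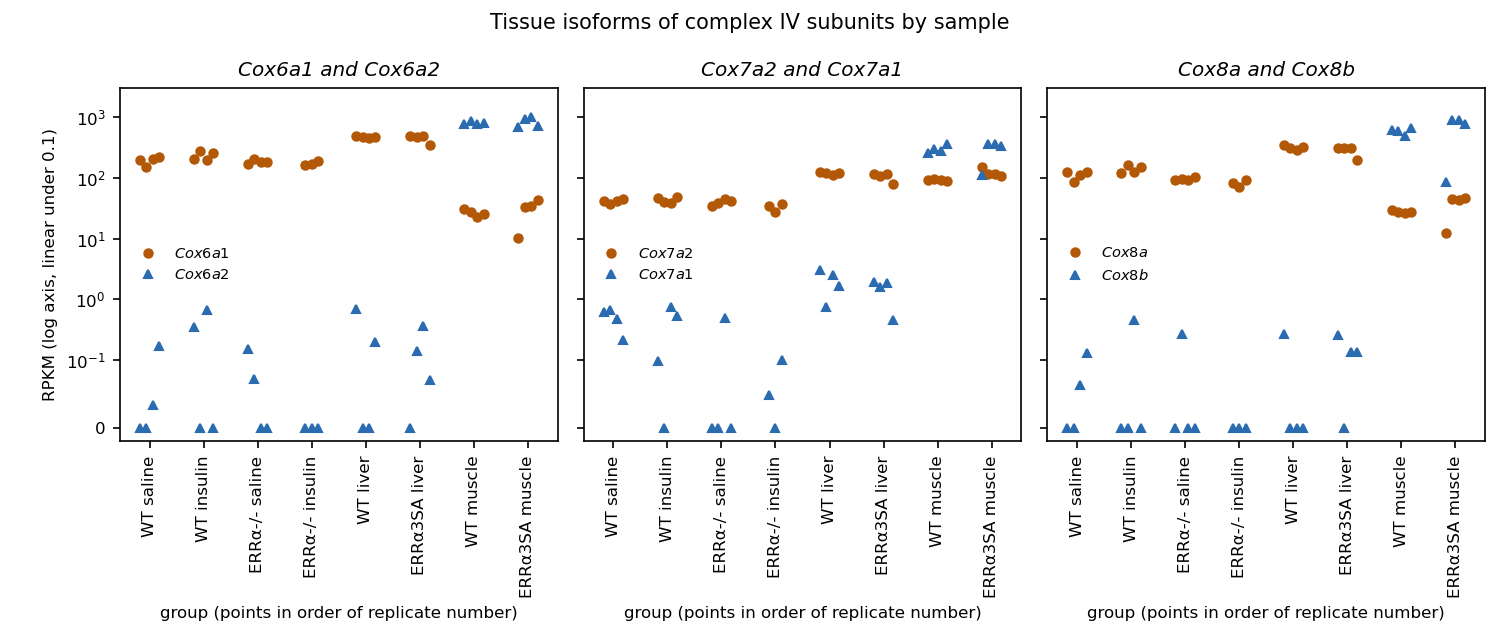
Level of the isoforms of each complex IV pair in every sample as RPKM, CPM per kilobase of exon (log vertical axis), samples by group along the horizontal axis. The muscle forms are near 0 in all livers, while *Cox7a2* is expressed in both tissues.

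The copper factor *Sco2* had 0 counts in all 31 libraries. Of its exon bases, 91.8% lie in exons of other genes, with *Tymp* the most, and 87.7% of its 50-base stretches are shared with another gene, *Ncaph2* the most, so a count of 0 does not show that *Sco2* is silent. *Cox6a2* and *Cox8b* also failed the filter in the liver comparisons, as did *Cox7a1* in the 2 comparisons that set ERRα-/- livers given insulin against 1 other group.

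In muscle, the question is what the ERRα3SA allele did. With all 8 muscles, 6 members rose, led by *Cox5b* and *Cycs*, and 30 of the 35 fold changes were positive. Without replicate 1 of ERRα3SA muscle, the library with the high mitochondrial share, 19 members rose, from all 3 complexes, and 13 of them passed the adjusted threshold. The counts therefore rest on how that library is treated. With all muscles, 6 of 35 members tested rose and 0 fell, where 2.78% of all genes rose and 1.75% fell, with a median log2 fold change of 0.22. At an adjusted p under 0.05 the count was 0 by edgeR's quasi-likelihood test, where 0.0% of all genes passed, and 2 by DESeq2, where 0.398% did; at unadjusted p under 0.05, in either direction, it was 7, where 4.77% of all genes passed. Without replicate 1, 19 rose and 0 fell, where 10.3% of all genes rose and 7.1% fell, with a median of 0.30; 22 had unadjusted p under 0.05, where 23.5% of all genes did, and 13 passed the adjusted threshold by edgeR, where 3.23% did.

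Complex II did not pass with all muscles; its 4 subunits had a median of 0.22. Without replicate 1, *Sdhb* and *Sdhd* rose. *Sdhd* had 186, 183, 153 and 157 CPM in WT and 103, 229.9, 253 and 198 CPM in ERRα3SA muscles, where replicate 1 is below and the other 3 are above every WT value. For *Sdhd* the log2 fold change was 0.23 ± 0.24 (adjusted p = 1) with all muscles and 0.45 ± 0.10 (adjusted p = 0.0435) without replicate 1, in edgeR (quasi-likelihood, Benjamini-Hochberg).

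*Cycs* had 284, 303, 289 and 318 CPM in WT and 636, 416, 404 and 393 CPM in ERRα3SA muscles. All 4 were above all WT values, replicate 1 the furthest. In edgeR (quasi-likelihood, Benjamini-Hochberg) its log2 fold change was 0.66 ± 0.17 (adjusted p = 0.725) with all muscles and 0.47 ± 0.06 (adjusted p = 0.00952) without replicate 1. *Uqcrh* had 177, 185, 155 and 167 CPM in WT and 205, 228, 234 and 212 CPM in ERRα3SA muscles, again all above WT. For *Uqcrh* the log2 fold change was 0.39 ± 0.10 (adjusted p = 0.729) with all muscles and 0.43 ± 0.07 (adjusted p = 0.0216) without replicate 1. Other subunits of complex III split by library. *Uqcr11* had 92.8, 92.3, 75.6 and 89.3 CPM in WT and 28.0, 182, 177 and 144 CPM in ERRα3SA muscles, the lowest of them in replicate 1. *Uqcrb* had 221, 249, 241 and 272 CPM in WT and 787, 235, 239.7 and 208 CPM in ERRα3SA muscles, the highest of them in the same library. *Uqcr11* and *Uqcrb* were picked for these opposite shifts after their values had been seen.

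In complex IV, *Cox5b*, a zinc-binding subunit on the matrix side, had 197, 204, 185 and 226 CPM in WT and 259, 299, 299 and 251 CPM in ERRα3SA muscles. There was no overlap, and in edgeR (quasi-likelihood, Benjamini-Hochberg) the log2 fold change was 0.47 ± 0.11 (adjusted p = 0.683) with all muscles and 0.51 ± 0.08 (adjusted p = 0.0184) without replicate 1. *Cox7a2* rose without overlap, with a log2 fold change of 0.44 ± 0.12 (adjusted p = 0.846), and 0.33 ± 0.06 (adjusted p = 0.0265) without replicate 1. *Cox7a2l* had 91.9, 86.1, 75.2 and 87.2 CPM in WT and 123, 112, 105 and 94.7 CPM in ERRα3SA muscles, all above WT, with a log2 fold change of 0.38 ± 0.12 (adjusted p = 0.894). Without replicate 1 it had a log2 fold change of 0.33 ± 0.08 (adjusted p = 0.0619). The assembly factor *Cox10* rose at 0.27.

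Of the tissue isoforms, *Cox8b*, *Cox7a1*, *Cox8a* and *Cox6a1* turned on replicate 1. In it *Cox8b* stood at 30.9 CPM, against 276 to 325 CPM in the other 3 ERRα3SA muscles and 179 to 243 CPM in WT. The log2 fold change of *Cox8b* was 0.18 with all muscles and 0.55 without replicate 1, that of *Cox8a* 0.42 and 0.72, that of *Cox7a1* 0.02 and 0.30, that of *Cox6a1* 0.22 and 0.51, and that of *Cox6a2* 0.09 and 0.18. Of these, *Cox6a2* did not pass in either fit. The 6 markers of slow and oxidative fibres summed to 9386 CPM in replicate 1 and to 3690, 4475 and 3956 CPM in the others, against 4498 to 5415 CPM in WT, and *Myh2* was the most abundant of them. The 4 markers of glycolytic fibres, with *Myh4* the most abundant, summed to 126079 CPM in replicate 1 and to 61432, 64710 and 45895 CPM in the others, against 62662 to 73147 CPM in WT. Their part in the result was not tested.

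Of the further complex II to IV genes, 2 of 30 rose with all muscles, *Ndufa4* and *Slirp*. Without replicate 1 it was 13 of 30, *Coa3*, *Coa4*, *Cox14*, *Higd1a*, *Higd2a*, *Ndufa4*, *Pet100*, *Sdhaf1*, *Sdhaf4*, *Slirp*, *Uqcc1*, *Uqcc2* and *Uqcc3*. Of complex I, 13 of 36 subunits rose with all muscles and 19 without replicate 1. For ATP synthase it was 2 and 7 of 16. The 4 mitochondrially encoded subunits had a median of 0.48 with all muscles and −0.10 without replicate 1.

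**Figure D4:**
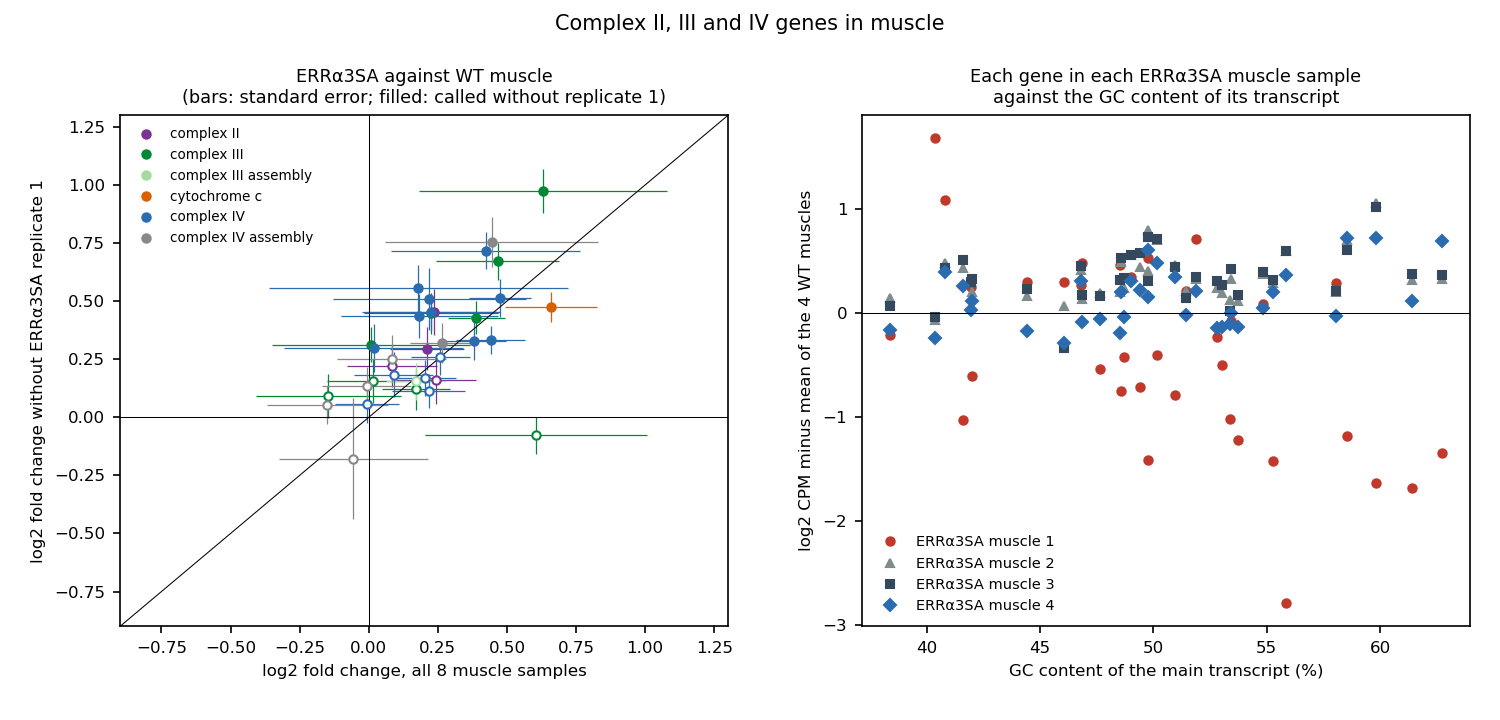
Left, log2 fold change of each member in ERRα3SA against WT muscle with all 8 muscles and without ERRα3SA replicate 1, with standard errors as bars. Right, each member's log2 difference from the WT muscle mean in each ERRα3SA muscle against the GC content of its main transcript in percent, where replicate 1 slopes down and the other 3 do not.

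In liver, the 33 members tested had a median log2 fold change of −0.03, and 1 of them fell and 0 rose, where 2.38% of all genes fell and 2.5% rose. That was *Cox11*, a copper chaperone, at 6.13, 6.10, 6.17 and 5.85 CPM in WT and 4.85, 5.29, 3.97 and 4.04 CPM in ERRα3SA livers. All ERRα3SA values were below all WT values, and in edgeR (quasi-likelihood, Benjamini-Hochberg) the log2 fold change was −0.41 ± 0.12 (adjusted p = 0.563). At an adjusted p under 0.05 the count was 0 by edgeR, where 0.0% of all genes passed, and 0 by DESeq2, where 0.315% did; at unadjusted p under 0.05, in either direction, it was 1, where 7.47% of all genes passed. A share of 1 in 33 is near that of all genes, and 48.3% of the exon bases of *Cox11* lie in other genes. When the liver and muscle groups were fitted together, *Cox11* was at −0.42 and the count was 0. Without ERRα3SA replicate 2 the count was 2. Cholangiocyte markers summed to 4.64 to 5.62 CPM in WT and 1.89 to 3.04 CPM in ERRα3SA livers, without overlap. Leukocyte markers summed to 142 to 162.3 CPM in WT and 161.9 to 212 CPM in ERRα3SA livers, which overlapped. The part of these markers in the result was not tested.

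Replicate 4 of ERRα3SA liver, low in nearly all members, set the direction of the median. Without it the median was 0.06, 24 of 33 fold changes were positive, 1 member fell, again *Cox11* at −0.37, and 8 had unadjusted p under 0.05, where 10% of all genes did. The other 7 of these were positive and under the fold threshold, from 0.13 for *Uqcr10* to 0.22 for *Sco1*. In that fit 2.86% of all genes rose, 3.74% fell and 0.0% passed after adjustment. Complex II subunits had a median of −0.03 with and 0.10 without it. For complex III subunits the medians were −0.06 and 0.05. For complex IV subunits they were −0.04 and 0.06. Of the further genes, 1 of 28 fell, *Coa3*, and of complex I and ATP synthase 0 of 36 and 0 of 16 passed at unadjusted p under 0.05 with the fold threshold by edgeR; without replicate 4 of ERRα3SA liver the count was 0 in all 3 lists.

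The difference between muscle and liver in the effect of ERRα3SA was tested as an interaction, muscle minus liver, with all 4 groups in 1 fit. The effect was larger in muscle for 6 members at unadjusted p under 0.05. The count was 6 of 35 higher and 0 lower, where 3.19% of all genes were higher and 2.43% lower, with a median log2 difference of 0.24. At an adjusted p under 0.05 the count was 0 by edgeR's quasi-likelihood test, where 0.0% of all genes passed, and 0 by DESeq2, where 0.172% did. Without replicate 1 of ERRα3SA muscle 14 were higher and 0 lower, with a median of 0.33, where 8.87% of all genes were higher, 9.44% lower and 2.3% passed after adjustment. In that fit *Uqcrq*, *Cox8a* and *Cox11* passed the adjusted threshold. Without replicate 4 of ERRα3SA liver the count was 6 with a median of 0.16, and without replicate 3 of ERRα3SA muscle it was 3.

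In complex III with cytochrome c, *Cycs* had 111, 101, 98.0 and 105 CPM in WT and 107, 112, 127 and 88.6 CPM in ERRα3SA livers, which overlapped, while the muscles did not. Its log2 difference was 0.56 ± 0.21 (adjusted p = 0.833) with all libraries and 0.36 ± 0.14 (adjusted p = 0.176) without replicate 1 of ERRα3SA muscle, in edgeR (quasi-likelihood, Benjamini-Hochberg). *Uqcrh* had 148, 136, 142 and 144 CPM in WT and 153, 154, 149 and 114 CPM in ERRα3SA livers, and a difference of 0.36 ± 0.15 (adjusted p = 0.853). *Uqcrq* had 329, 305, 275 and 296 CPM in WT and 291, 265, 276 and 182 CPM in ERRα3SA livers, and in muscle 208, 220.5, 183 and 205 CPM and 154, 332, 335 and 285 CPM. Replicate 1 was the lowest of those muscles, and the difference was 0.69 ± 0.28 (adjusted p = 0.853) with it and 0.88 ± 0.18 (adjusted p = 0.0287) without it. In complex IV, *Cox7a2* had a difference of 0.61 ± 0.18 (adjusted p = 0.656). *Cox7a2l* had 98.8, 88.3, 87.7 and 89.0 CPM in WT and 95.5, 95.03, 84.0 and 79.6 CPM in ERRα3SA livers, and a difference of 0.39 ± 0.15 (adjusted p = 0.828). *Cox5b* had 159, 139, 128 and 141 CPM in WT and 146, 161, 142 and 85.1 CPM in ERRα3SA livers, and a difference of 0.53 ± 0.22 (adjusted p = 0.853).

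Unadjusted p of 3 of these rose above 0.05 when 1 library was left out. For *Uqcrq* the log2 difference was 0.58 without ERRα3SA muscle replicate 2 and 0.58 without replicate 3. For *Uqcrh* it was 0.33 without ERRα3SA muscle replicate 3 and 0.34 without WT liver replicate 1. For *Cox5b* it was 0.49 without ERRα3SA muscle replicate 2, 0.49 without replicate 3 and 0.47 without WT liver replicate 1. Of the further complex II to IV genes, 4 of 30 had a higher interaction, *Coa3*, *Ndufa4*, *Sdhaf4* and *Slirp*, and 0 a lower one. For complex I it was 12 of 36 higher and for ATP synthase 1 of 16. Without replicate 1 of ERRα3SA muscle 13 further genes, 16 complex I and 6 ATP synthase subunits were higher and 1, 0 and 1 lower, and without replicate 4 of ERRα3SA liver 2, 10 and 0 were higher and 0 lower.

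The remaining members, not described singly, are given by range. Across the 31 libraries every shared subunit of complexes II and III and *Cycs* had at least 18.1 CPM, so depth did not limit those values, while *Cox17* ran from 0.207 to 2.27 CPM and *Bcs1l* from 6.90 to 17.8 CPM.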

How the data were processed

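The analysis started from the deposited count tables, in which the authors counted reads per Ensembl gene ID after alignment with STAR to mm10, according to the submitters' processing notes; the study's methods give a genome browser site as the source of its gene annotation, but not the annotation's version or the strandedness used for counting. Symbols, exon lengths and overlaps came from GENCODE vM21, and promoters from RefSeq on GRCm38.p6. All 36 members were found in both tables. For each comparison of 2 groups, and for each interaction over 4 groups, genes were filtered with filterByExpr, library sizes normalised by TMM and the quasi-likelihood test of edgeR 4.0.16 (R 4.3.3) applied to all genes that passed, with Benjamini-Hochberg adjustment over all of them. DESeq2 1.42.0 served as the alternative. CPM use TMM library sizes, and log2 CPM a prior count of 2. A call needs unadjusted p under 0.05 with at least a 1.2-fold difference, for the tissues an adjusted p, and for interactions unadjusted p alone.

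Values in every sample are given for the tissue isoforms, for *Esrra* and, in each comparison, for up to 3 members each of complex II, complex III with cytochrome c, and complex IV with the smallest p among those called. No measured value decides which genes are members, but these complexes and the further lists were taken up with earlier results of these data known, and so no test was made over a list. Whether same-numbered samples are pairs was checked: 26 correlations between them ran from −0.22 to 0.33, and in 0 of 7 comparisons were all above 0.1, so no pairing was used. No 2 replicates of a group were duplicates: the lowest chi-square per degree of freedom over 45 pairs of replicates was 6.30. Libraries of different groups were not compared in this way. No sample was dropped unless the text says so.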

Additional observations from a re-analysis of the deposited data

Results flagged for a closer look

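In each group of 4 samples, a value was picked out when the lowest or highest sample was separated from its nearest neighbour by an unusually large part of the whole range (Dixon's test at 95%). Chance does this in about 1 in 20 groups; here it was 17 of 181 combinations of gene and group over 28 genes. The cause of each was not tested.

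Replicate 1 of ERRα3SA muscle held 6 of them: *Cox11* at 2.36 CPM, *Cox6b1* at 107 CPM, *Cox7a1* at 58.7 CPM, *Cox8a* at 7.60 CPM and *Cox8b* at 30.9 CPM were far below the other 3, and *Cycs* at 636 CPM far above. Replicate 4 of ERRα3SA liver held 4, all far below: *Cox6a1* at 242 CPM, *Cox6b1* at 109 CPM, *Cox8a* at 120.1 CPM and *Uqcrh* at 114 CPM. In replicate 2 of WT liver given insulin, *Cox7a2l* at 93.2 CPM, *Esrra* at 96.5 CPM and *Sdhd* at 234 CPM were far above. The others were *Uqcrh* at 49.4 CPM in replicate 2 of WT liver given saline, *Cox5a* at 82.9 CPM in replicate 2 and *Cox7a2l* at 98.8 CPM in replicate 1 of WT liver, and *Uqcr10* at 226 CPM in replicate 2 of WT muscle.

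Differences of an effect between groups, by the interaction test at unadjusted p under 0.05, were also picked out; 0 passed an adjusted p under 0.05 in edgeR (quasi-likelihood, Benjamini-Hochberg), and 0 did in DESeq2. For insulin in ERRα-/- against WT liver there were 10, with log2 differences of −0.60 for *Cox4i1*, −0.58 for *Sdhd*, −0.57 for *Cox8a*, −0.54 for *Uqcrq*, −0.52 for *Uqcrh*, −0.51 for *Cox6c*, −0.48 for *Cox7a2l*, −0.46 for *Uqcrfs1*, −0.45 for *Cycs* and −0.43 for *Cyc1*. For ERRα3SA in muscle against liver there were 6, of 0.69 for *Uqcrq*, 0.61 for *Cox7a2*, 0.56 for *Cycs*, 0.53 for *Cox5b*, 0.39 for *Cox7a2l* and 0.36 for *Uqcrh*.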

How the results depend on the processing

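None of the 109 calls over the 9 comparisons changed sign in 1601 values under the alternatives. Of the medians 1 did: that of ERRα3SA liver was 0.06 without ERRα3SA replicate 4, in place of −0.03. The calls were selected on the same counts, and comparisons share libraries, so a kept sign is a weak check. The counts of members that rose or fell, and their median log2 fold changes, were recomputed with DESeq2, median-of-ratios size factors, no filter on low counts, the 4 groups of an experiment fitted together, without mitochondrial genes, and without each sample in turn. Apart from the left-out samples, 1 count moved by over 1.5 times: for ERRα3SA against WT liver it was 0, in place of 1, with 4 groups together; the cause was not tested. Leaving out each replicate in turn, the count ran from 3 to 20 for insulin in WT liver, 1 to 3 for insulin in ERRα-/- liver, 12 to 17 for ERRα-/- after saline, 18 to 26 for ERRα-/- after insulin, 4 to 14 for the interaction with insulin, 1 to 2 for ERRα3SA in liver, 5 to 19 for ERRα3SA in muscle, 28 to 29 for the tissues and 3 to 14 for the interaction with tissue. In the same order the medians ran from 0.25 to 0.40, −0.13 to −0.02, −0.31 to −0.23, −0.72 to −0.52, −0.45 to −0.27, −0.09 to 0.06, 0.15 to 0.30, 0.47 to 0.57 and 0.16 to 0.35. The ranges of counts stand without the share of all genes, so they cannot tell a change in the members from a general one. With replicate number as a replicate block, a fit in place of the unpaired one, no count moved by over 1.5 times.

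Of 55 fold changes given with their values, 55 kept their call under each of DESeq2, median-of-ratios factors, no filter, no mitochondrial genes and the replicate block, 39 of 42 kept it with 4 groups together (*Cox11* in ERRα3SA liver and *Sdha* and *Sdhc* between the tissues did not), and 501 of 526 without 1 sample. The 55 were picked for the smallest p on the same counts, so a kept call is a weak check too. *Sco2* had 0 counts, and *Cox6a2* and *Cox8b* failed the filter in the liver comparisons, so these were not tested there. With 3 to 4 animals a group, a p above 0.05 does not show that values did not differ.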
